A study of Mus musculus with 6 samples.

Results

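The 10 genes described here are the suppressors of cytokine signalling Socs1, Socs2, Socs3 and Cish, the Janus kinases Jak1, Jak2 and Jak3, and the transcription factors Stat3, Stat5a and Stat5b. They were listed by symbol, and all 10 were found among the 26181 genes of the expression table and among the 15819 genes tested. RNA was sequenced from primary CD8+ T cells of the spleens of wild-type C57BL/6 mice. From 6 weeks of age, and for 7 weeks, the mice were given ND, which the labels do not spell out, or CDAHFD. The latter stands for a high-fat feed lacking choline, with amino acids in place of protein, and is used to model steatohepatitis. Each diet had 3 libraries. The labels do not say that the libraries of a diet came from separate mice, so p-values reflect only how far these libraries vary, which may be technical.

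Many cytokines act through JAK-STAT signalling. A cytokine draws its receptor chains together, the Janus kinases bound to those chains phosphorylate them, and STAT proteins dock there, are phosphorylated in turn, pair up and switch on genes in the nucleus. Among the genes switched on are the SOCS proteins and CIS, the product of Cish, which bind the receptors or the kinases and damp the signal, so that their messenger RNA is often read as a trace of recent cytokine signalling. In CD8+ T cells, interleukin 2, interleukin 7 and interleukin 15 signal mainly through JAK1, JAK3 and the STAT5 proteins, and interleukin 6 signals mainly through STAT3.

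STAT dimers bind the palindromic motif TTCNNNGAA, which reads the same on both strands. It was looked for in the windows that RefSeq gives for these genes on GRCm38.p6, from 250 bases before the annotated start to 50 after it. Windows were found for 9 of the 10 genes, 11 windows in all, and 2 of the 11 held the motif, against 8.30% of all 32851 windows of the same length. These 2 windows, the only ones of the 11 with the motif, are shown. They belong to Cish, the gene with the largest change, and Socs3, the SOCS gene with the highest level. They lie at chr9:107296409-107296708 on the plus strand and chr11:117969317-117969616 on the minus strand, are written 5′ to 3′ along the gene, and have the matches in capitals.
Cish: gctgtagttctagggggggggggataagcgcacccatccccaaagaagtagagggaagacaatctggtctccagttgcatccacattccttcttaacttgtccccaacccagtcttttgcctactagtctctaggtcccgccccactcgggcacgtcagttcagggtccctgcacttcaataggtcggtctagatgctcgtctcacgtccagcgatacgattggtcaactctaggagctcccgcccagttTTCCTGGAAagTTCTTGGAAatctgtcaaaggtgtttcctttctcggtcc
Socs3: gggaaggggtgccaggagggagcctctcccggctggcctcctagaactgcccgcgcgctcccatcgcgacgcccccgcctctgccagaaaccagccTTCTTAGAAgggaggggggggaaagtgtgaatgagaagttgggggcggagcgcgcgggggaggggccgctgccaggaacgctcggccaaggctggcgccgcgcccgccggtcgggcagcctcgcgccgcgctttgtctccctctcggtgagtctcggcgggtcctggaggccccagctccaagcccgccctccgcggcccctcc
The Cish window held 2 matches, beginning at bases 251 and 262 of the window, and 0.457% of all windows held 2 or more. The Socs3 window held 1 match, beginning at base 97. A match of letters is a description and does not show that a STAT protein was bound there.

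Between 25314988 and 28067393 reads per library had been assigned to genes. Of all genes tested, 47.1% were called at a limma adjusted p under 0.05, 24.6% as higher and 22.5% as lower in CDAHFD libraries. The preparations carried strong T cell signal in both diets, with summed normalised counts over 15 CD8 T cell genes of 177030 to 182190 in ND and 143025 to 148003 in CDAHFD libraries, and 14 of the 15 were called lower. Markers of other cells were present too. All 16 macrophage genes were called higher, and their sum went from between 21926 and 24450.5 in ND to between 168773 and 187464 in CDAHFD libraries, with none of the 16 at 0 in any library. The sum of 12 neutrophil genes went from between 3480 and 3516 to between 9198 and 10403, with 10 called higher, and that of 10 B cell genes fell from between 26691 and 27772 to between 21010 and 22079.5, with 9 called lower. Plasma cell genes were called higher in 7 of 8 tested, with a sum of 3898 to 4053 in ND and 38089.6 to 39392 in CDAHFD libraries. Dendritic cell genes were called lower in 8 of 11, with a sum of 27817 to 28555 in ND and 22577 to 23658 in CDAHFD libraries. Ccr7 (mean 9944 in ND and 8211 in CDAHFD) and Irf8 (7515 and 6137) had the highest counts in that sum. Itgax, Bst2 and Batf3 were not called. Erythroid genes were called higher in 9 of 10, with a sum of 3352 to 3687 in ND and 11320.3 to 11514 in CDAHFD libraries. Tfrc, the 1 called lower, made up most of that sum in ND (mean 2594 in ND and 2035 in CDAHFD). Many of the 10 genes are known to be expressed in macrophages, neutrophils and B cells as well as in T cells, and the part of these cells in the changes below was not tested. In bulk RNA a change in the share of a cell type and a change in RNA per cell cannot be told apart.

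Of the 10 genes, 6 were called higher in CDAHFD libraries (Cish, Socs2, Socs3, Stat3, Socs1 and Jak3), 3 were called lower (Stat5a, Jak2 and Stat5b, all of which turned upward when libraries were scaled to T cell genes) and Jak1 was not called. These shares, 60.0% higher and 30.0% lower, stand beside 24.6% and 22.5% of all genes tested. The median log2 fold change of the 10 was 0.21, beside -0.01 over all genes tested. The 10 genes were chosen with earlier results of these data known, so contrasts with all genes are descriptions only. The libraries of the diets did not overlap for 7 of the 10, against 54.3% of all genes tested. Changes of at least 1.5-fold were seen for Cish and Socs2, both higher, and 13.6% of all genes tested were called higher and 5.03% lower by that much. All fold changes here are on the log2(normalised count + 1) scale.

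**Figure D1:**
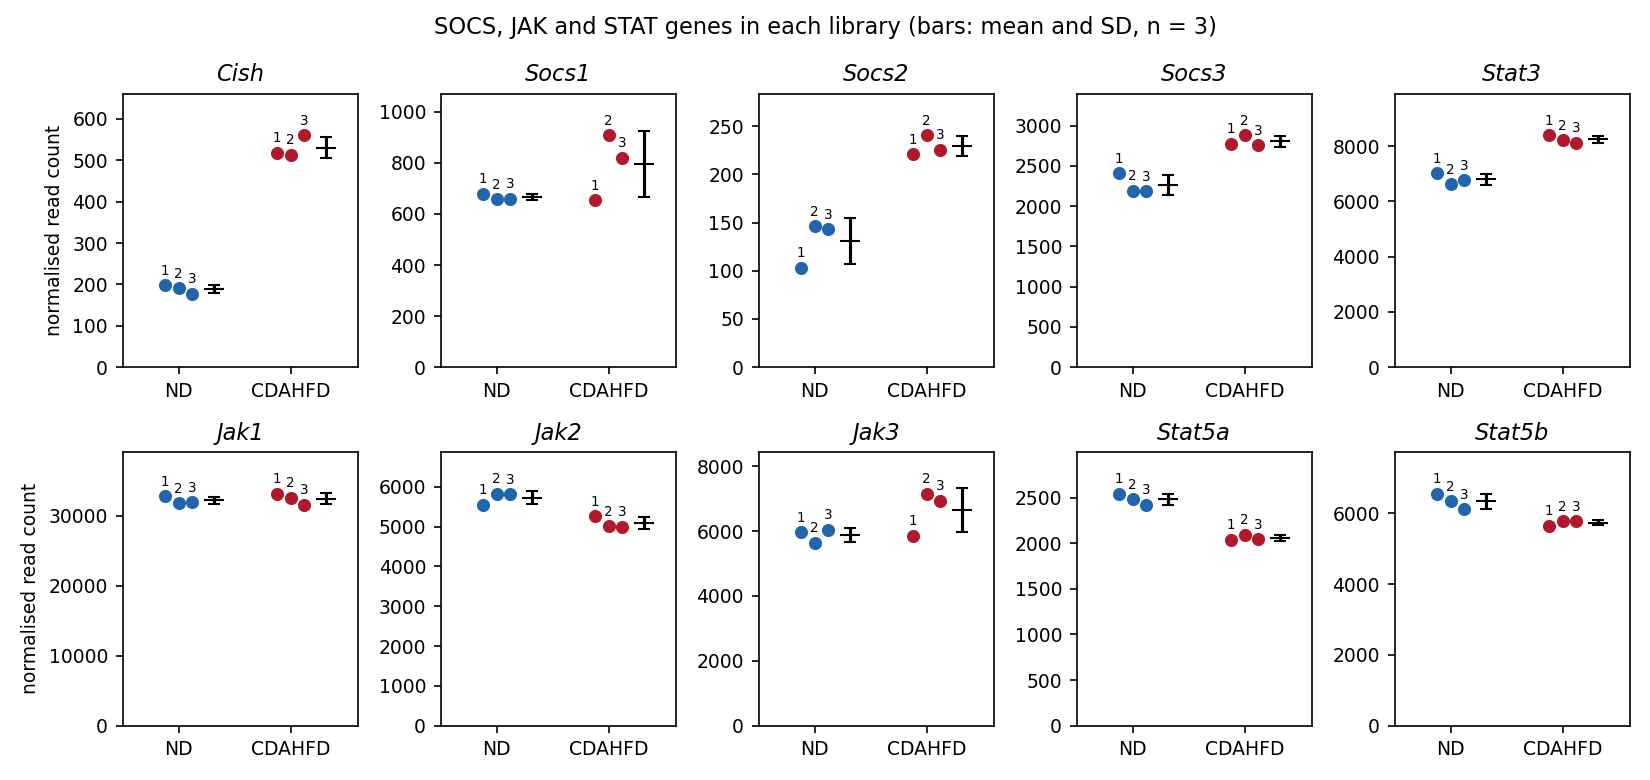
Normalised read counts of the 10 genes in each library (numbers beside the points are replicate numbers, bars are the mean and SD of 3 libraries, and each vertical axis starts at 0). Cish lies near 190 in ND and above 510 in CDAHFD libraries, and for Socs1 and Jak3 the first CDAHFD library lies among or below the ND libraries.

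The SOCS family held the largest changes. Cish (ENSMUSG00000032578, chromosome 9, 107296026 to 107302784 in mm10) encodes CIS, a feedback inhibitor of STAT5 signalling that also restrains T cell receptor signalling in CD8+ T cells of mice. Its normalised counts were 198, 191 and 177 in the ND libraries and 518, 513 and 560.5 in the CDAHFD libraries. Every CDAHFD library thus held more than any ND library, by a gap far wider than the spread within either diet. The mean rose 2.80-fold, from 189 ± 10.6 to 531 ± 26.0 (SD, n = 3 per diet, log2 fold change 1.49, SE 0.09, limma adjusted p = 4.44e-14). With each library left out in turn the log2 fold change lay between 1.44 and 1.52. Exons of Cish overlap those of the predicted genes Gm17040 and Gm17041 on the opposite strand. These held almost no signal, with 1.94 normalised counts of Gm17040 in 1 CDAHFD library and 0 elsewhere.

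Socs2 (ENSMUSG00000020027, chromosome 10, 95385362 to 95417180), best known as a brake on growth hormone signalling, had the lowest counts of the 10. It had 103, 146 and 143 normalised counts in ND and 221, 241 and 226 in CDAHFD libraries. The diets did not overlap, and the first ND library was the lowest of its diet. The rise was 1.76-fold, from 131 ± 23.9 to 229 ± 10.2 (log2 fold change 0.82, SE 0.13, limma adjusted p = 5.96e-06), and lay between 0.66 and 0.91 on the log2 scale with single libraries left out. The SD in ND libraries was 18.3% of the mean, where read counting alone gives 8.73%.

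Socs3 (ENSMUSG00000053113, chromosome 11, 117966079 to 117970047), which binds the interleukin 6 receptor chain gp130 and blocks the JAKs on it, had 2405, 2192 and 2187 normalised counts in ND libraries. In CDAHFD libraries it had 2773, 2880.0 and 2759.7. All CDAHFD values were higher than all ND values, yet the step was small beside that of Cish, at 1.24-fold (log2 fold change 0.31, SE 0.05, limma adjusted p = 2.33e-06).

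Socs1 (ENSMUSG00000038037, chromosome 16, 10782240 to 10785536), an inhibitor of JAK kinases that limits interferon and common gamma chain cytokine signals, did not separate the diets. Its normalised counts were 679, 657 and 660.0 in ND and 654, 908 and 819.9 in CDAHFD libraries. The first CDAHFD library lay below every ND library while the other two lay above them all. The log2 fold change was 0.24, with an SE of 0.09 (limma adjusted p = 0.0356), and the call was lost when any one library other than the first of CDAHFD was left out, with adjusted p from 0.0783 to 0.185. Without the first CDAHFD library the log2 fold change was 0.37 (limma adjusted p = 1.87e-05), and without the second it was 0.14 (limma adjusted p = 0.185). Within CDAHFD the SD of Socs1 was 16.2% of the mean, where read counting alone gives 3.52%.

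Among the Janus kinases, Jak1 (ENSMUSG00000028530, chromosome 4, 101152367 to 101265282), the kinase shared by most cytokine receptors of T cells, had the highest level of all 10 genes. It had 32787, 31795 and 31962 normalised counts in ND and 33134, 32552 and 31550.2 in CDAHFD libraries. The diets overlapped fully. The log2 fold change was 0.01, with a 95% interval from -0.06 to 0.09 at the deposited scaling (limma adjusted p = 0.849).

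Jak2 (ENSMUSG00000024789, chromosome 19, 29251828 to 29313080), used by receptors for interferon gamma, interleukin 12 and many myeloid growth factors, had 5546, 5825 and 5819 normalised counts in ND libraries and 5263, 5014 and 4998 in CDAHFD libraries. Its values did not overlap between diets. It fell by 0.17 on the log2 scale (SE 0.04, limma adjusted p = 8.96e-04), a direction that turned over when libraries were scaled to T cell genes, as given below.

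Jak3 (ENSMUSG00000031805, chromosome 8, 71676296 to 71690575), which pairs with the common gamma chain, had 5972, 5642 and 6050.0 normalised counts in ND libraries and 5863, 7153 and 6935 in CDAHFD libraries. The first CDAHFD library lay within the ND range and the other two above it. The log2 fold change was 0.17 (SE 0.06, limma adjusted p = 0.0454). It missed the threshold when any one library other than the first of CDAHFD was left out (adjusted p from 0.0585 to 0.136) and in edgeR's quasi-likelihood test (adjusted p = 0.0598). It was 0.26 (limma adjusted p = 9.15e-07) without the first CDAHFD library. Jak3 shares 404 exon bases with Insl3 on the same strand, a gene at 106 to 161 normalised counts in ND and 152 to 218 in CDAHFD libraries, so a small part of the reads may be assigned to either.

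The first CDAHFD library, which set Socs1 and Jak3 apart, also differed most from the other libraries of its diet over all genes. Its counts differed from theirs by 5.79 and 6.16 times the variance of read sampling, beside 2.85 between the second and the third. It had the highest macrophage sum (187464, beside 168773 and 179647) and the highest neutrophil sum (10403, beside 9198 and 9495) of its diet. Its CD8 T cell sum, 145836, lay between those of the other two (148003 and 143025). The part of these differences in Socs1 and Jak3 was not tested.

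The 3 STAT genes lie side by side on chromosome 11 and moved apart. Stat3 (ENSMUSG00000004040, 100885098 to 100939540), which carries signals of interleukin 6, interleukin 10 and interleukin 21, had 7024, 6624 and 6778 normalised counts in ND and 8396, 8220.5 and 8126 in CDAHFD libraries. The diets were well separated. It rose 1.21-fold (log2 fold change 0.28, SE 0.04, limma adjusted p = 8.86e-07).

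Stat5a (ENSMUSG00000004043, 100859351 to 100885169) and Stat5b (ENSMUSG00000020919, 100780731 to 100850724) encode close paralogues that carry interleukin 2, interleukin 7 and interleukin 15 signals. Stat5a had 2542, 2481 and 2419 normalised counts in ND and 2036, 2094 and 2041 in CDAHFD libraries (log2 fold change -0.27, SE 0.04, limma adjusted p = 1.02e-05). Stat5b had 6553, 6335 and 6124 in ND and 5651, 5770.5 and 5782 in CDAHFD libraries (log2 fold change -0.14, SE 0.04, limma adjusted p = 0.00366). For both genes every CDAHFD library lay below every ND library, so at the deposited scaling, but not when scaled to T cell genes, the STAT5 genes were lower in the libraries where Cish was higher. The Stat5b call was lost without limma's trend and robust settings (adjusted p = 0.0534). Reads of these paralogues could be split by the counting, and Stat5a and Stat3 overlap by 72 exon bases on opposite strands. No source used here states the strand setting, so reads in that overlap cannot be assigned.

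The falls depend on what the libraries are scaled to. Scaling every library to the geometric mean of the 15 CD8 T cell genes moved the median of all genes tested by 0.31 on the log2 scale. On that scale 65.4% of all genes tested were called, 60.5% as higher and 4.85% as lower, and 9 of the 10 genes were called higher and 0 lower. Jak2 and Stat5b were called higher (log2 fold changes 0.14 and 0.17, limma adjusted p = 0.00426 and 5.81e-04) and Stat5a was not called (0.04, 95% interval -0.05 to 0.14, adjusted p = 0.422). Jak1 was then called higher at 0.32 (limma adjusted p = 2.21e-09). Cish, Socs2, Socs3, Stat3, Socs1 and Jak3 were called higher under this scaling too, at 1.80, 1.13, 0.63, 0.59, 0.56 and 0.48. This scaling divides each library by a factor common to all its genes. Subtracting the shift of 0.31 returned the log2 fold changes of the deposited scaling to 2 decimals, from -0.27 for Stat5a to 1.49 for Cish. That return follows from the arithmetic and is no separate support.

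**Figure D2:**
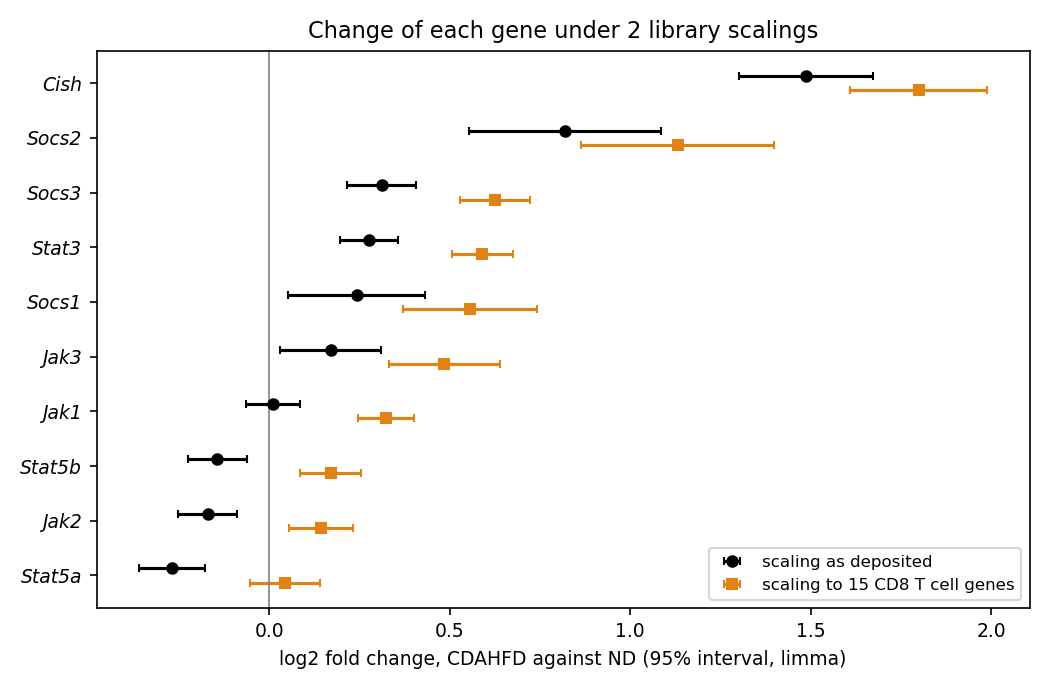
Log2 fold change of each gene, CDAHFD against ND, with its 95% interval from limma, at the deposited library scaling (circles) and with libraries scaled to 15 CD8 T cell genes (squares). Cish stands at 1.49 and 1.80, while Stat5a, Jak2 and Stat5b lie below 0 at the deposited scaling and above 0 at the other.

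Ratios between genes of the same library do not depend on scaling, and 9 pairs of related genes were compared by an exact two-sided permutation test, whose smallest p with 3 against 3 libraries is 0.1. For 7 pairs the diets did not overlap, each with an exact permutation p = 0.1 (0.129 after Benjamini-Hochberg adjustment over the 9), so none can pass a threshold of 0.05 in this design. Of single genes tested, 54.3% did not overlap, and no such share was taken for pairs. Most of the 7 pairs share Cish or Stat5b, so they are not separate results. The largest shift was that of Cish against Stat5b, whose log2 ratio was -5.04, -5.05 and -5.10 in ND and -3.44, -3.49 and -3.36 in CDAHFD libraries, a difference of 1.63 (SE 0.04). Cish was thus higher relative to the gene of a factor that drives it in all 3 CDAHFD libraries. Cish also outpaced the other SOCS genes. The log2 ratio to Cish differed between diets (CDAHFD minus ND) by -1.24 for Socs1 (SE 0.15), by -1.18 for Socs3 (SE 0.06) and by -0.67 for Socs2 (SE 0.21).

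Within the STAT genes, the log2 ratio of Stat3 to Stat5b went from 0.10 ± 0.04 in ND to 0.52 ± 0.04 in CDAHFD libraries (SD, n = 3, exact permutation p = 0.1). That of Stat5a to Stat5b went from -1.35 ± 0.01 to -1.48 ± 0.02 (exact permutation p = 0.1), so Stat5a was below Stat5b in all 6 libraries and the ratio was lower in CDAHFD, with a difference of -0.13 (SE 0.01). Within the kinases, Jak2 to Jak1 went from -2.49 ± 0.06 to -2.67 ± 0.02 with no overlap (exact permutation p = 0.1). Jak3 to Jak1 overlapped between diets, with CDAHFD values of -2.50, -2.19 and -2.19 beside -2.46, -2.49 and -2.40 in ND (exact permutation p = 0.4). Socs3 to Stat3 overlapped as well, at -1.59 ± 0.04 and -1.56 ± 0.04 (exact permutation p = 0.5), a difference of 0.03 (SE 0.03).

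**Figure D3:**
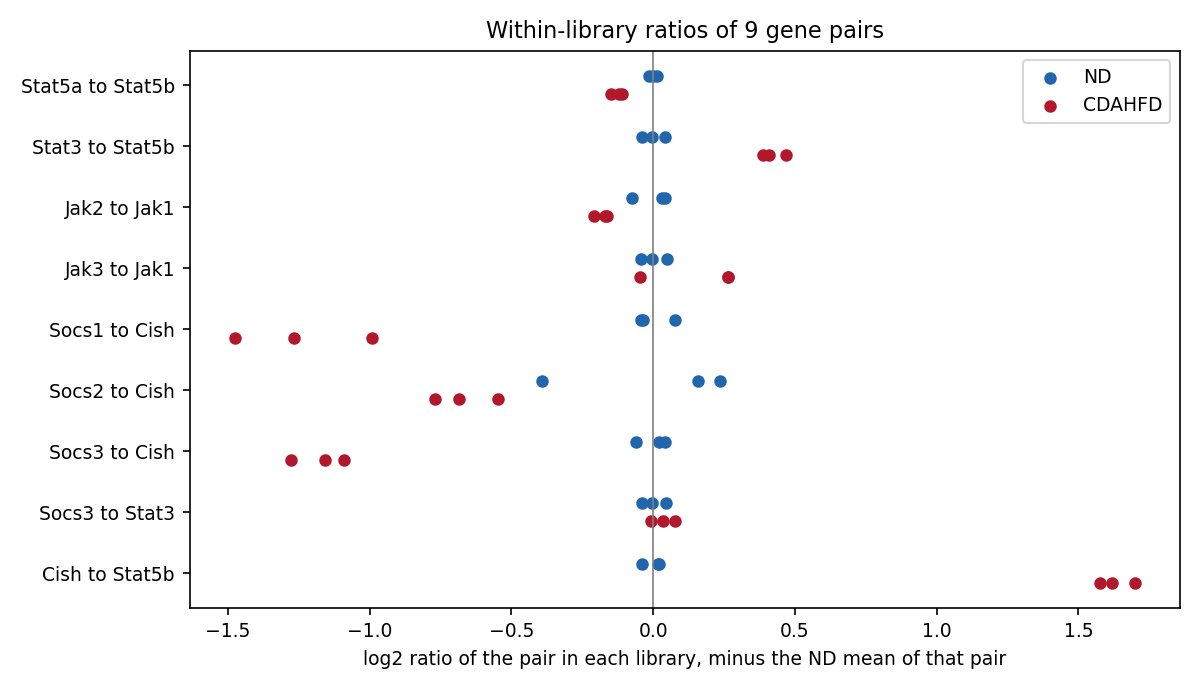
Log2 ratio of 9 gene pairs in each library, shown as the distance from the ND mean of that pair. The 3 CDAHFD points lie apart from the 3 ND points in 7 pairs, farthest for Cish to Stat5b, and overlap them for Jak3 to Jak1 and Socs3 to Stat3.

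Levels were compared between genes per kb of summed exon length. In ND libraries Jak1 stood first at 4453 ± 73.5 normalised counts per kb. Stat5b (1144 ± 38.8), Jak2 (1139 ± 31.7) and Jak3 (1100.2 ± 40.5) followed and could not be told apart by their library ranges. Below them came Socs3 (782 ± 43.0), Stat3 (715 ± 21.2), Stat5a (348 ± 8.57), Socs1 (229 ± 4.02), Cish (29.4 ± 1.65) and Socs2 (13.7 ± 2.51), each with a range apart from its neighbours.

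In CDAHFD libraries the order at the top was Jak1 (4485 ± 111), then Jak3 (1243 ± 129), with Stat5b (1035 ± 13.1), Jak2 (1012 ± 29.6) and Socs3 (970.0 ± 22.8) after it. Stat5b and Jak2 overlapped each other, as did Jak2 and Socs3, and Stat5a (288 ± 4.47) overlapped Socs1 (273 ± 44.3). Cish remained second from the bottom at 82.7 ± 4.04 and Socs2 last at 24.0 ± 1.07 per kb. Cish made up 2.79% ± 0.10 of the summed level per kb of the 4 SOCS family genes in ND and 6.13% ± 0.43 in CDAHFD libraries, while Socs3 made up 74.2% ± 0.84 and 71.9% ± 2.21. The largest change on the log2 scale thus belonged to one of the least abundant of the 10 genes. The length used matters. By the length of the principal transcript, a setting chosen after seeing the data, Stat3 moved from the sixth to the second place in both diets, at 1508 and 1826 per kb, and Cish stood at 66.2 and 186 per kb.

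**Figure D4:**
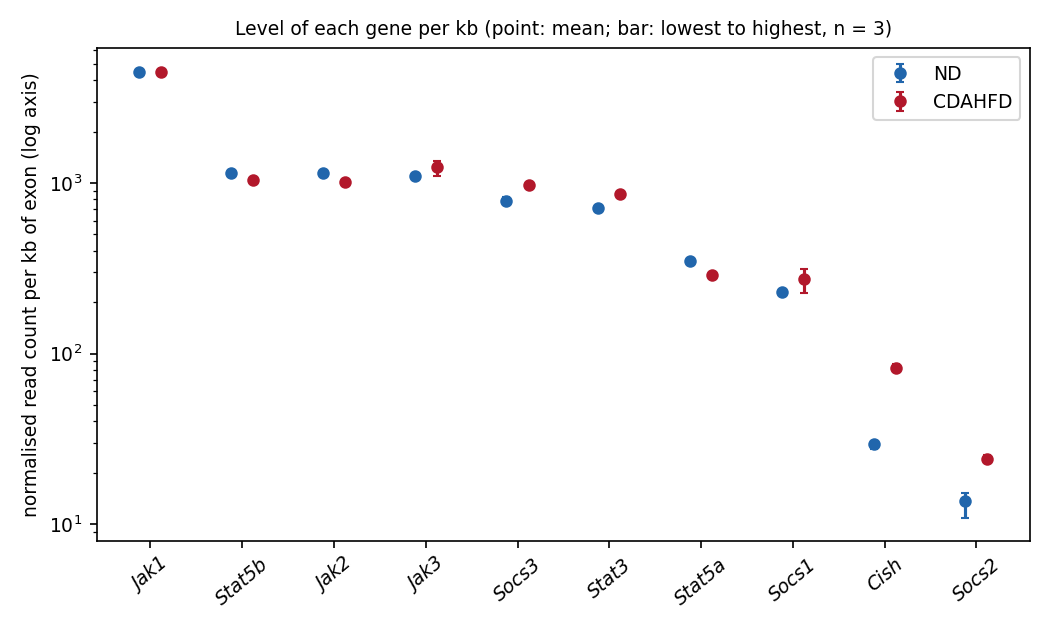
Normalised read count per kb of summed exon length on a log axis, for each gene and diet (points are means, bars run from the lowest to the highest of 3 libraries). Jak1 stands at 4453 and 4485 per kb, and Cish and Socs2 are the lowest in both.

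Over the 6 libraries, the profile of Cish on the log2 scale, centred on its mean, was nearest by Euclidean distance to those of Slc48a1 (distance 0.09), Gpr137b (0.10) and Pdgfb (0.14) among 12927 genes with a standard symbol. Slc48a1, a transporter of haem, went from 1013 ± 38.4 to 2829.8 ± 220 normalised counts, and Gpr137b, a lysosomal membrane protein, went from 260.0 ± 18.6 to 739 ± 23.5. Pdgfb, a growth factor of mesenchymal cells, went from 191 ± 13.8 to 570.1 ± 54.6. The profile of Stat5a was nearest to those of Arl4c, Tcp11l2 and Anxa6 (distances 0.03, 0.03 and 0.03). With 2 diets such likeness rests mostly on the size of the change.

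The rest of the pathway was read from 7 lists, some of which share genes. The lists were chosen with earlier results of these data known, so contrasts with all genes are descriptions only. Over their union 101 genes were tested, of which 53 were called higher, 12 lower and 36 neither, beside 24.6% and 22.5% of all genes. Their median log2 fold change was 0.17. Scaled to the T cell genes, 86 were called higher and 3 lower. Of all genes tested, 60.5% were called higher and 4.85% lower under that scaling. Macrophage and neutrophil markers rose in the same libraries, and their part in these counts was not tested.

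Of the 9 other SOCS, JAK and STAT genes, 4 (44.4%) were called higher, 0 lower and 5 neither. Over all genes tested the shares were 24.6% higher and 22.5% lower. Socs6 went up from 680.5 ± 54.3 to 844 ± 25.6 (log2 fold change 0.31, limma adjusted p = 2.68e-04), and Socs5 rose from 776 ± 68.7 to 928 ± 19.1. Tyk2 and Stat6, named after their values were seen, were the other two, with log2 fold changes of 0.14 and 0.18. Of 16 other negative regulators, 4 were called higher, 3 lower and 9 neither. The ubiquitin ligase Cblb rose from 4148 ± 78.8 to 5219 ± 43.3 and the phosphatase Ptpn1, which acts on JAK2 and TYK2, rose from 4716 ± 90.2 to 5653 ± 156. The adaptor Sh2b2 fell from 209 ± 26.4 to 148 ± 16.0, a call that was lost when scaled to T cell genes. Pias2, a SUMO ligase of the family named for inhibiting STATs, fell from 1656 ± 77.3 to 1409.8 ± 44.4 at the deposited scaling and stood at a log2 fold change of 0.08 when scaled to T cell genes.

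Of 20 lymphocyte cytokine receptor genes tested, 11 were called higher, 5 lower and 4 neither, with a median log2 fold change of 0.41. Among all genes tested, 24.6% were called higher and 22.5% lower, and the median log2 fold change was -0.01. Il9r rose from 240 ± 12.1 to 766 ± 67.2 (log2 fold change 1.67, limma adjusted p = 5.13e-16), and Il13ra1, a chain of receptors for interleukin 4 and interleukin 13, rose from 179 ± 16.2 to 437 ± 49.0. Chains of receptors that signal through JAK1, JAK3 and STAT5 in CD8+ T cells gave an uneven picture. They were named after their values were seen, except for Il7r. Il7r rose from 14683 to 28806, Il2rb from 10120.1 to 17971 and Il15ra from 299 to 630.3, while the common gamma chain Il2rg fell from 7389 to 6883 normalised counts (log2 fold change -0.10, limma adjusted p = 0.0428), a fall smaller than the shift of 0.31 that scaling to T cell genes gives. The receptors that signal through STAT3 were mixed. Among those of interleukin 10 and interleukin 21, named after their values were seen, Il10ra rose from 3059 ± 157 to 4948 ± 101 (log2 fold change 0.69, limma adjusted p = 8.73e-14) and Il10rb from 1144 ± 66.7 to 1723 ± 93.2. Il21r was at 4471 ± 77.8 and 4557 ± 260 and was not called (log2 fold change 0.03, limma adjusted p = 0.658). The chain gp130 (Il6st) fell from 10533 ± 258 to 7861 ± 230 at the deposited scaling (log2 fold change -0.42, limma adjusted p = 3.73e-10). Much of that fall is covered by the shift of 0.31 that scaling to T cell genes gives. The 15 CD8 T cell genes themselves had a median log2 fold change of -0.30. The interleukin 6 receptor Il6ra fell from 6943 ± 152 to 5981 ± 167 and Il27ra from 7889 ± 278 to 6644 ± 211 at the deposited scaling, but they stood at 0.10 and 0.07 when scaled to T cell genes.

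Of 13 receptor genes of myeloid cells and other tissues, 8 were called higher, 1 lower and 4 neither. That is 61.5% and 7.69%, beside 24.6% and 22.5% of all genes tested. Epor, the erythropoietin receptor, rose from 44.5 ± 6.86 to 241 ± 12.9 (log2 fold change 2.42, limma adjusted p = 8.04e-14) in libraries whose erythroid genes were called higher in 9 of 10, Epor among them. Il5ra, the interleukin 5 receptor chain, fell from 189 ± 17.2 to 87.2 ± 2.70. Lepr, the leptin receptor, had 0, 1.02 and 7.54 normalised counts in ND and 266, 233 and 279 in CDAHFD libraries. Its ND mean, 2.85, lay under the tested minimum of 10. Lepr thus entered the count of 8 through CDAHFD libraries alone and adds no support to the 61.5%. Only 9 of 29 listed ligand genes reached the tested minimum, of which 7 were called higher and 2 lower. That is 77.8% and 22.2%, beside 24.6% and 22.5% of all genes tested. Il7, 1 of the 7, was at 0 in ND and reached the tested minimum through CDAHFD libraries alone. It could only be called higher, so it adds no support to the 77.8%. Ifng rose from 32.4 ± 6.62 to 119 ± 16.1 (log2 fold change 1.85, limma adjusted p = 4.98e-09). Il7 had 0 reads in the ND libraries and 9, 33 and 23 in the CDAHFD libraries, which is at least 21.0-fold higher when the ND group as a whole is set to 3 reads, a limit that covers counting error only. Il12a fell from 52.2 ± 13.2 to 22.6 ± 3.20. Clcf1 fell from 3395 ± 165 to 2850.0 ± 326 at the deposited scaling, a call lost under plain limma settings, and stood at 0.06 when scaled to T cell genes.

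At the deposited scaling, most listed target genes were called higher or not called. Over all genes tested, 24.6% were called higher and 22.5% lower. The part of the rising macrophage markers in these counts was not tested. Of 22 genes listed as STAT5 targets, all tested, 12 (54.5%) were called higher, 1 (4.55%) lower and 9 neither, with a median of 0.17. Besides Il7r, the named rise was that of Spred1, an inhibitor of RAS signalling, from 575 ± 34.0 to 1043 ± 52.2. The kinase gene Pim3 fell from 795 ± 47.2 to 707 ± 14.6 (log2 fold change -0.17, limma adjusted p = 0.0322), a call that was lost in DESeq2 (adjusted p = 0.0662), without the filter, under plain limma settings and with any of 4 single libraries left out, and that stood at 0.15 when scaled to T cell genes. Named after their values were seen, Bcl2l1 had a log2 fold change of 0.56, Pim1 one of 0.30 and Myc one of 0.03 (limma adjusted p = 0.586). Of 24 STAT3 targets tested, 12 were called higher, 2 lower and 10 neither, with a median of 0.28. Maf rose from 293 ± 23.1 to 3241 ± 66.3 (log2 fold change 3.47, limma adjusted p = 1.07e-26) and Prdm1, also a marker of plasma cells, rose from 118 ± 15.5 to 531 ± 19.9. Plasma cell markers, of which Prdm1 is one, were called higher in 7 of 8 tested, and Maf is known from macrophages as well.

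**Figure D5:**
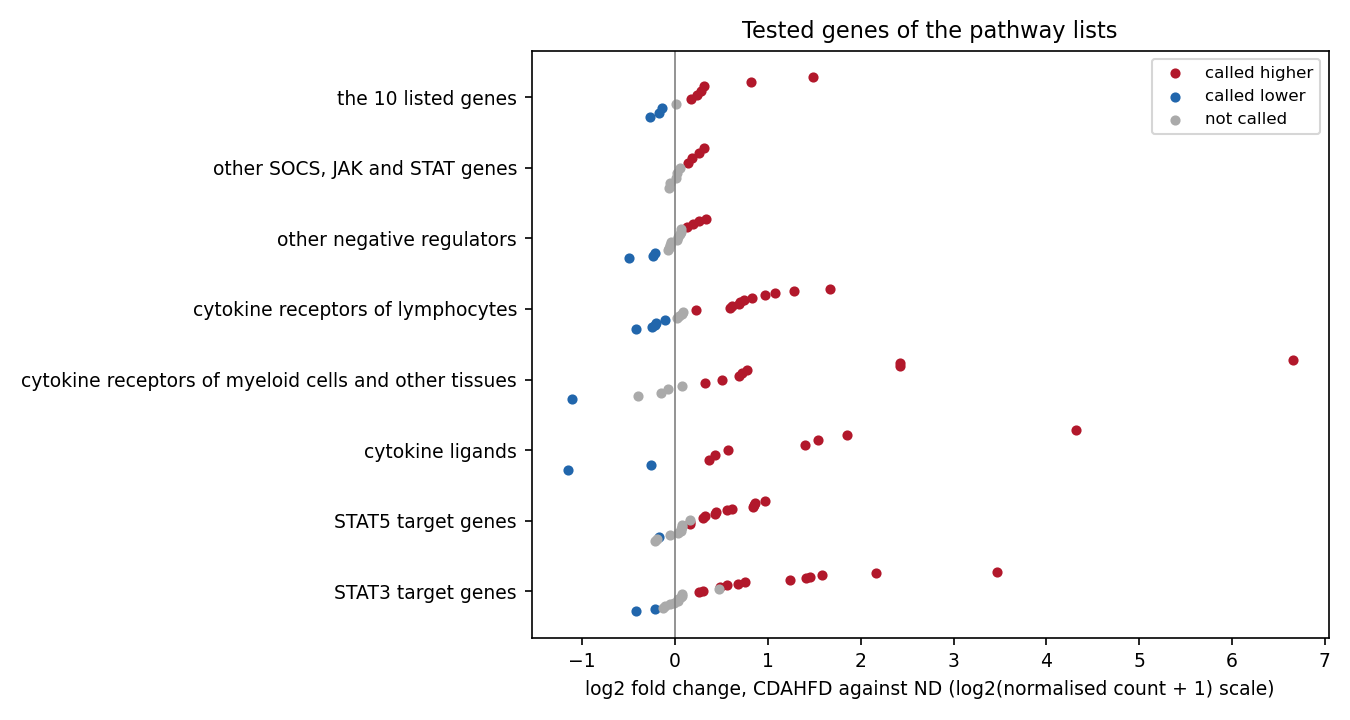
Log2 fold change of each tested gene in the 10 listed genes and in 7 lists of the pathway, coloured by whether limma called it higher, lower or neither at the deposited scaling. Points of the myeloid receptor, ligand and STAT3 target lists reach beyond 2, and those of the other SOCS, JAK and STAT genes stay between -0.06 and 0.31.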

How the data were processed

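The authors deposited 1 table of signal values, normalised read counts per gene in 6 columns. The genome build was mm10, per the submitters' processing notes, while the aligner, counter and annotation are not given in the sources used here. Libraries were made with a whole-RNA or an mRNA kit, per the labels' protocols, without saying which served which. Columns spelled CDHFD were matched to the CDAHFD samples by group and replicate number. Dividing each column by its lowest nonzero entry gave whole reads for 100% of values, within 0.001. No column was left out.

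Genes averaging 10 or more normalised counts were tested with limma 3.58.1 in R 4.3.3 (trend, robust) on log2(normalised count + 1), with Benjamini-Hochberg adjustment over all of them, tested on simulated data. Called means an adjusted p under 0.05. Recovered reads were tested with edgeR 4.0.16 and DESeq2 1.42.0, which called 7536 and 6755 genes where limma called 7449. Symbols matched 26147 IDs. Positions and exon lengths came from GENCODE M21, which has the same build, and promoter windows came from RefSeq.

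The members and lists were chosen with earlier results of these data known. Named genes are the 10 members, up to 2 rises and 2 falls per list with diets apart, and the 3 genes of nearest profile to the called members that rose and fell most. Alternatives were other pseudocounts, filters, scalings, tests, a replicate block and each library left out.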

Additional observations from a re-analysis of the deposited data

How the results depend on the processing

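Under pseudocounts of 0.5 or 5, no filter, a mean of at least 50, DESeq2 and the replicate block, the same 6 of the 10 genes were called higher and the same 3 lower. The 6 became 4 under equal totals or plain limma settings, 5 under TMM scaling or edgeR, and 4 to 6 with single libraries left out. The genes lost were Socs1 or Jak3 or both. The 3 lower became 2 under plain limma settings, without Stat5b. Scaling to T cell genes left 0 of the 10 lower and gave 86 other pathway genes higher and 3 lower. That scaling called 60.5% of all genes tested higher and 4.85% lower. It turned the log2 fold changes of Jak2 (0.14), Stat5a (0.0444), Stat5b (0.17), Pias2 (0.0825), Il27ra (0.0662), Clcf1 (0.0563), Pim3 (0.15) and Il6ra (0.10) upward, which follows from the shift of 0.31 that this scaling gives all genes. Equal totals moved Jak1 to -0.01, uncalled as before. Over all alternatives the adjusted p of Socs1 ran from 1.41e-05 to 0.185, and that of Jak3 from 9.15e-07 to 0.186. The ratios between members kept their direction under both pseudocounts and with each library left out. Replicate numbers did not pair the libraries, since same-numbered libraries of the diets had correlated deviations of 0.04, -0.05 and 0.06. The replicate block gave 6 genes higher and 3 lower, with 53 and 11 other pathway genes. Depth limits Socs2 most, with 99 to 254 reads per library.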

Other observations

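Some ligand and receptor genes lay under the mean of 10 normalised counts needed for a test, and 3 of them, chosen after their values were seen, were at or near 0 in the ND libraries. Tslp, a cytokine of epithelial and stromal cells that signals through STAT5, had 2.08, 1.02 and 0 normalised counts in ND and 14.8, 19.9 and 17.4 in CDAHFD libraries. Il21, a cytokine of helper T cells that signals through STAT3, had 0, 0 and 0.94 in ND and 9.52, 9.47 and 2.90 in CDAHFD libraries. Prlr, the prolactin receptor, had 0, 4.08 and 1.89 in ND and 11.6, 12.3 and 7.74 in CDAHFD libraries. Because these 3 genes were chosen after their values were seen, the gap between diets is no support for a change. Each value rests on few reads and no test was made.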
